A study of Homo sapiens with 6 samples.

Results

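The HOX cluster genes were examined in human skin fibroblasts irradiated with ultraviolet B (UVB) and cultured with or without sauchinone, a plant lignan. Members were all genes of the deposited table whose symbol was HOX followed by A, B, C or D and a number. This rule used no measured value and gave 39 of 61806 genes, of which 11 were HOXA, 10 HOXB, 9 HOXC and 9 HOXD genes. The cells were HFF, human foreskin fibroblasts from a cell bank, labelled wild type and all of a single batch. The UVB group (3 libraries) received 40 mJ per cm2 and was kept in vehicle. The UVB + sauchinone group (3 libraries) received the same dose and 10 µM sauchinone, and both were cultured for 48 h. Whether the compound was also given for 4 h before irradiation is not stated for these libraries. Cells without irradiation were not analysed here, and each difference given is between 2 irradiated groups. The labels do not tell whether the 3 replicates of a group were separate cultures, and p-values therefore measure only the spread between these libraries, which may be technical.

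HOX genes encode homeodomain transcription factors that give cells their position along the body axis. Within a cluster the genes lie in the order of their action, with low paralog numbers (3′ end) used toward the head and high numbers (5′ end) toward the tail and the tips of the limbs. Adult skin fibroblasts keep much of this pattern, and those of distal and genital sites are known for posterior genes such as HOXA13. HOX proteins bind DNA together with PBX, MEIS and PKNOX proteins, and the clusters are held silent by Polycomb complexes and kept active by MLL complexes. Retinoic acid is a classic inducer of HOX genes, beginning at the 3′ end.

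On GRCh38 the HOXA members spanned chr7:27092993-27200091 on the minus strand and the HOXB members chr17:48528526-48728750 on the minus strand. The HOXC members lay at chr12:53938831-54056030 and the HOXD members at chr2:176092721-176190907, both on the plus strand. RefSeq (GRCh38.p14) gave a start site window for 20 of the 39 members, and for 9 of the 14 that could be tested. The 4 windows printed here belong to the members with the firmest changes, HOXA9 (higher with sauchinone) and HOXA13, HOXD10 and HOXD11 (lower). Each shows the 250 bases before the start, 5′ to 3′ on the gene's strand. The letters CACGTG (a form of the E-box) and CCAAT, or its reverse complement ATTGG, are in capitals. Other forms of the E-box were not searched or marked.
HOXA9, chr7:27165538-27165787, minus strand: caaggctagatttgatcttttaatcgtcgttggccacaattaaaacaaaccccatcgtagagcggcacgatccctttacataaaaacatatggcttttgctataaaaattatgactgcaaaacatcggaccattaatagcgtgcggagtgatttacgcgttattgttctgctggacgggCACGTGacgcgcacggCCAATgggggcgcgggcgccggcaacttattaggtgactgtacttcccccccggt
HOXA13, chr7:27200092-27200341, minus strand: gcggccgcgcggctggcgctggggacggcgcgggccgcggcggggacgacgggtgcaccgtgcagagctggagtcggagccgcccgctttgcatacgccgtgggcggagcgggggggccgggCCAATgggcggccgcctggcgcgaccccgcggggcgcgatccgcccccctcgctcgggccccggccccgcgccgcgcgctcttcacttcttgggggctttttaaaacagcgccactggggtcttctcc
HOXD10, chr2:176116528-176116777, plus strand: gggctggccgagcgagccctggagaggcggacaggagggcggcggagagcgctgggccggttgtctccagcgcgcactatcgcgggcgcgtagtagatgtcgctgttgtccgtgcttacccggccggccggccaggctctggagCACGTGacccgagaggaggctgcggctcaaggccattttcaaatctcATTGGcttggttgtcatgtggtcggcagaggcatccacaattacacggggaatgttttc
HOXD11, chr2:176107030-176107279, plus strand: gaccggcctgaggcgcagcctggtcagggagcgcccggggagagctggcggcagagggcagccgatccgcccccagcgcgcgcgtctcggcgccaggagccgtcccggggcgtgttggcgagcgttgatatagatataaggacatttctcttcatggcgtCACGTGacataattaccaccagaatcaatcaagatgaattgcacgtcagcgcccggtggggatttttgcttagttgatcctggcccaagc

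The motifs were chosen with the changes and sequences known, were searched on both strands, and a match is a description only. CACGTG began 71 bases before the start of HOXA9, 106 before that of HOXD10 and 90 before that of HOXD11, so it occurred in windows of genes that were higher and of genes that were lower. The 20 members have 26 different windows, since a gene can have several and HOXC4 and HOXC5 share one. CACGTG was present in 8 of these 26 windows and in 6.34% of all 35116 windows. CCAAT began 55 bases before the HOXA9 start, 128 before HOXA13 and 59 before HOXD10, and was present in 17 of the 26 windows and in 32% of all. The PBX-HOX type motif TGATNNAT was present in 3 of the 26, those of HOXA2, HOXB1 and HOXD11 (6.47% of all windows), and the retinoid receptor half-site AGGTCA in 0 of the 26 (12.1% of all windows). The RefSeq start lay inside the gene as the table bounds it for 3 of the 4 printed windows, by 9643 bp for HOXA9, 7988 bp for HOXD10 and 3064 bp for HOXD11.

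Total counts per library ran from 20984851 to 23076388, and 24223 to 25259 genes had at least 1 count. A count of 0 allows up to 3 counts, which was 0.129 to 0.144 CPM (the count relative to TMM-scaled library size) and covers counting error only. Enough counts for the test were present for 15704 genes. The fibroblast label was checked against marker genes. The 9 fibroblast markers summed to 19170 to 20968 CPM in the UVB libraries and to 13529 to 13819 CPM with sauchinone, and 8 of the 9 were lower. Markers of epithelium summed to 16.5 to 17.2 and 17.2 to 18.9 CPM with KRT5 and KRT1 at 0 in all libraries, those of melanocytes to 1.85 to 2.55 and 1.47 to 1.63 CPM with DCT at 0, and those of leukocytes to 3.13 to 4.03 and 3.73 to 4.06 CPM with CD3E at 0. Most of the epithelial sum was KRT10, at 11.1 ± 0.59 CPM in UVB and 12.9 ± 0.27 CPM with sauchinone (SD, n = 3). Other markers had counts in every library, among them EPCAM (43, 52 and 74 in UVB, 68, 66 and 52 with sauchinone) and CD14 (43, 43 and 38 against 42, 67 and 57). KRT15 (51, 63 and 40 against 38, 22 and 36) was lower (edgeR adjusted p = 0.034). MLANA, of melanocytes, was lower too, at 22, 33 and 21 against 12, 10 and 5 (edgeR adjusted p = 0.0045). Endothelial markers summed to 6.76 to 7.99 and 2.51 to 3.39 CPM with CDH5 and KDR at 0. Most of that sum was TEK, with 152, 131 and 155 counts in UVB and 63, 43 and 60 with sauchinone. TEK was lower (log2 fold change −1.47 ± 0.19, SE, edgeR adjusted p = 1.5e-06). Pericyte and smooth muscle markers, some of which fibroblasts also express, summed to 357 to 359 CPM in UVB and 173 to 189 CPM with sauchinone, and 5 of their 7 tested genes were lower. Over all tested genes the share called lower was 24.9%. The part of these marker shifts in the HOX results was not tested.

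Most HOX counts came from the 5′ side of the HOXA and HOXD clusters, and almost none from HOXB. At least 1 count in every library was found for 23 of the 39 members, against 30.6% of all genes of the table, which also include noncoding RNAs. These were 11 of 11 HOXA genes, 7 of 9 HOXD genes, 4 of 9 HOXC genes and, of the 10 HOXB genes, only HOXB13. With at least 10 counts in every library 12 members were left, 7 of them HOXA and 5 HOXD. No count in any library was recorded for HOXB1, HOXB4, HOXB5, HOXB6, HOXB8, HOXC12 and HOXD1. For these 7 genes the limit that a count of 0 allows lay between 0.0398 FPKM (HOXC12) and 0.0769 FPKM (HOXB5) in a library, where FPKM is the count relative to exonic length and library size. The number of members with a count was 25, 25 and 28 in UVB replicates 1 to 3 and 27, 25 and 30 in UVB + sauchinone replicates 1 to 3.

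**Figure D1:**
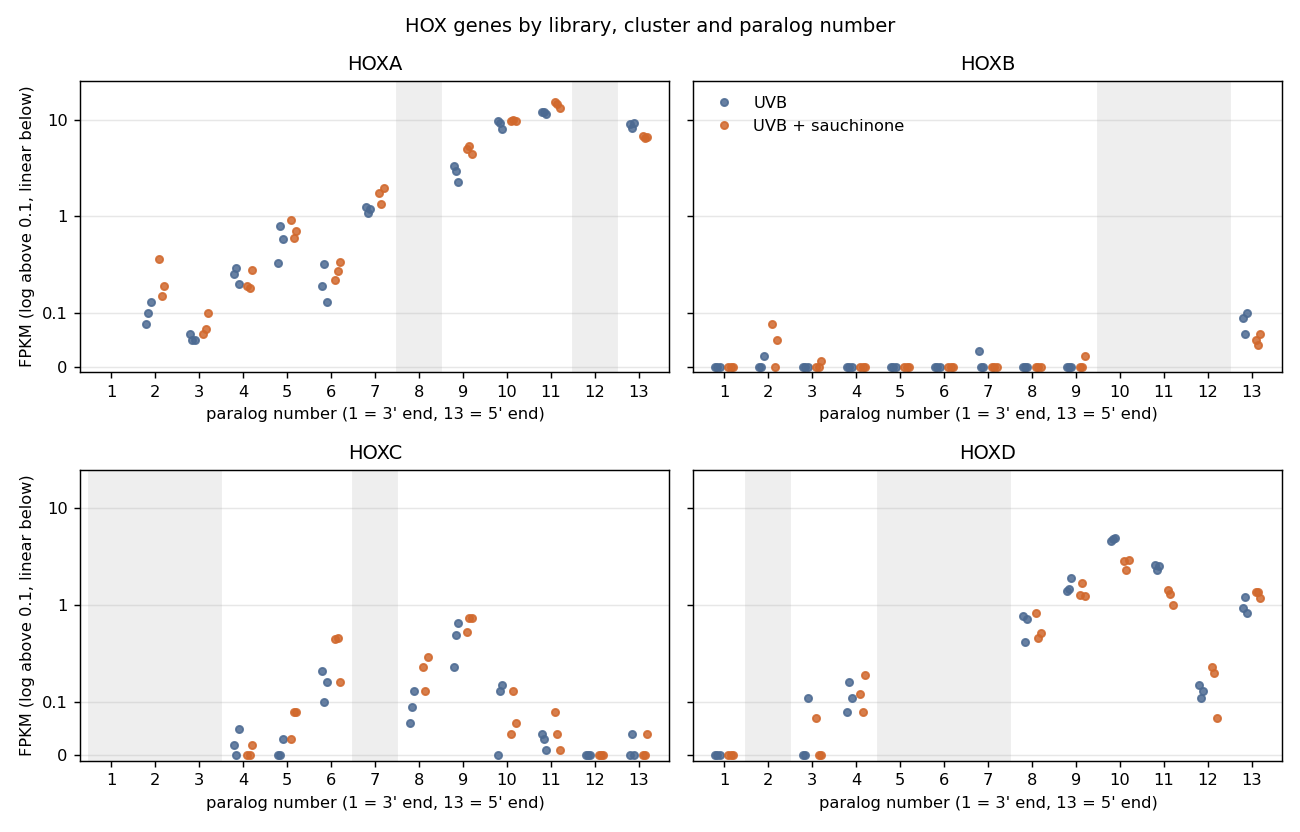
Level of 38 HOX genes in each library as FPKM (log axis above 0.1, linear below) against paralog number, 1 panel per cluster, with 3 points per group and grey where the cluster has no gene of that number. Values above 2 FPKM belong to HOXA9, HOXA10, HOXA11, HOXA13, HOXD10 and HOXD11, and HOXB lies at or near 0.

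All HOX genes together received 3269, 3294 and 3416 counts in UVB and 3399, 3502 and 3372 with sauchinone. Most of these counts came from paralog groups 9 to 13, whose share was 94.2%, 94.5% and 93.9% in UVB and 91.3%, 93.2% and 91.6% with sauchinone. The HOXA cluster held 83.4%, 82.6% and 80.5% of HOX counts in UVB and 85.6%, 86.5% and 86.7% with sauchinone. HOXD held 15.5%, 16.0% and 17.5% in UVB and 12.03%, 10.99% and 11.09% with sauchinone. The summed HOX count thus overlapped between the groups, while the HOXD share was lower in each of the 3 libraries with sauchinone and the HOXA share higher. Shares of a total depend on each other. Summed HOXA CPM overlapped, at 131.2, 126.0 and 121.4 in UVB and 131.6, 130.9 and 125.2 with sauchinone. Summed HOXD CPM did not, at 24.4, 24.5 and 26.4 against 18.5, 16.6 and 16.0. HOXC summed to 30, 42 and 58 counts in UVB and 73, 84 and 67 with sauchinone, and HOXB to 7, 4 and 8 against 7, 3 and 9. In bulk RNA, fewer cells using a gene and less RNA per cell cannot be told apart.

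Per length of exon, HOXA11 was the highest member in both groups, at 11.9 ± 0.36 FPKM in UVB and 14.2 ± 0.94 FPKM with sauchinone (SD, n = 3). It lay at percentile 79.0 of all tested genes in UVB. HOXA10 (9.02 ± 0.87 FPKM, SD, n = 3) and HOXA13 (8.75 ± 0.55 FPKM) followed in UVB, and their libraries overlapped. Then came HOXD10 at 4.77 ± 0.21 FPKM, HOXA9 at 2.84 ± 0.54 FPKM and HOXD11 at 2.47 ± 0.17 FPKM, the last pair again overlapping. HOXD9 (1.57 ± 0.27 FPKM), HOXA7 (1.18 ± 0.085 FPKM) and HOXD13 (0.993 ± 0.20 FPKM) were next, and HOXA7 and HOXD13 overlapped. HOXD8, HOXA5 and HOXC9 lay between 0.457 and 0.627 FPKM on average, each overlapping its neighbour in this order. HOXC6 was the lowest tested member at 0.157 ± 0.055 FPKM.

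With sauchinone the order of the first 3 stayed HOXA11, HOXA10 (9.82 ± 0.14 FPKM, SD, n = 3) and HOXA13 (6.63 ± 0.17 FPKM), now without overlap between them. HOXA9 (4.88 ± 0.44 FPKM) stood above HOXD10 (2.68 ± 0.33 FPKM), the reverse of their order in UVB, and the libraries of this pair did not overlap in either group. HOXD11 moved from the sixth place to the ninth, at 1.24 ± 0.21 FPKM, where its libraries overlapped those of HOXA7, HOXD9 and HOXD13.

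Of the 14 members tested, 5 changed at a Benjamini-Hochberg adjusted p under 0.05 (edgeR quasi-likelihood test, adjusted over every gene tested). HOXA9 and HOXC6 were higher with sauchinone, HOXA13, HOXD10 and HOXD11 were lower, and 9 members did not pass. The background was wide, since 49.6% of all tested genes passed, 24.7% higher and 24.9% lower. With 14 members, 5 calls cannot set their share apart from that of genes at large. The tested members were also at lower levels, with a median of 1.375 FPKM in UVB against 3.01 FPKM over all tested genes. HOX genes are short, with a median genomic span of 4.88 kb against 28.0 kb for all tested genes, and short genes were more often higher in these data. Among the 9440 tested genes no longer than the longest tested member (40.2 kb), 44.1% passed, 31.6% higher and 12.5% lower. Their median span was 12.4 kb, still longer than that of the members, so they match the members in length only in part. The median log2 fold change was 0.27 over the tested members, 0.15 over those short genes and 0.0071 over all tested genes, and it was 0.029 over the members once a smooth trend of counts with span was removed. The 2 groups did not overlap in CPM for 7 of the 14 members, against 57.1% of all tested genes.

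**Figure D2:**
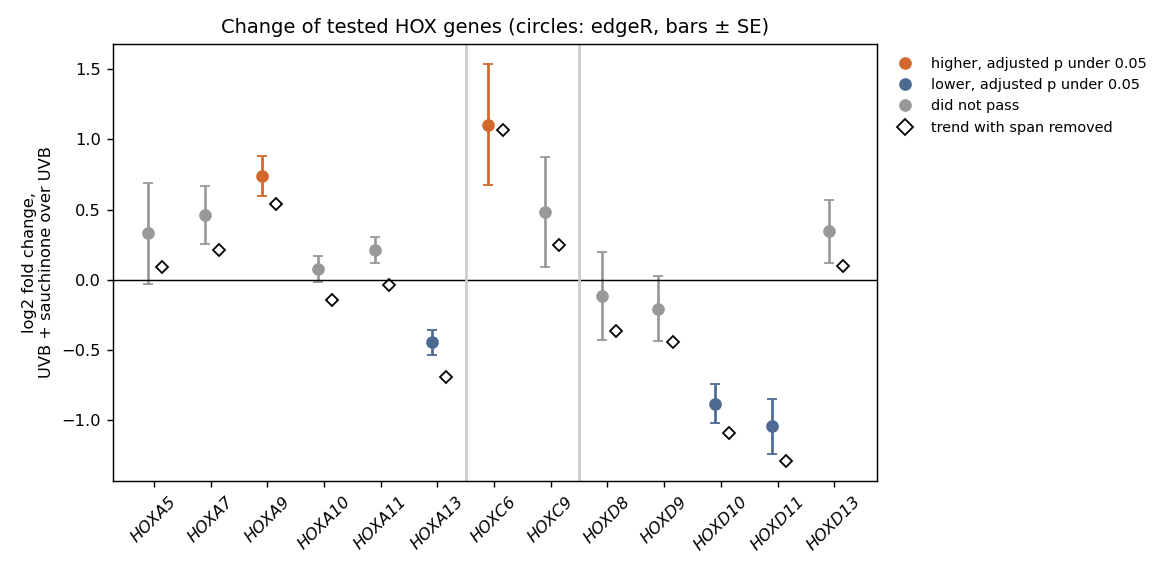
Log2 fold change, UVB + sauchinone over UVB, of 13 tested HOX genes in cluster order, as circles with bars of ± 1 SE and diamonds for the value after removal of a trend with genomic span. The 3 lower members (HOXA13, HOXD10, HOXD11) and HOXA9 stay on their side of 0 in both, while HOXA10 and HOXA11 move from just above 0 to just below it.

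In the HOXA cluster the change turned from higher to lower between paralogs 9 and 13. HOXA9, a posterior factor that also acts in blood stem cells, had 212, 197 and 158 counts in UVB and 324, 370 and 307 with sauchinone. All 3 sauchinone libraries lay above all UVB libraries, at 14.6 ± 1.4 against 8.77 ± 1.6 CPM (SD, n = 3). This was 1.67-fold higher, a log2 fold change of 0.74 ± 0.14 (SE, edgeR adjusted p = 1.7e-04). HOXA13, the most distal HOXA gene, needed for digits and the urogenital tract, had 956, 911 and 1071 counts in UVB and 748, 758 and 769 with sauchinone. The groups did not overlap, and its mean fell from 45.2 ± 2.6 to 33.2 ± 0.57 CPM (SD, n = 3). This was 1.36-fold lower, a log2 fold change of −0.45 ± 0.09 (SE, edgeR adjusted p = 2.5e-04), and −0.69 with the span trend removed.

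The pair between them did not pass. HOXA10, which patterns the proximal limb and the uterus, had 755, 762 and 689 counts in UVB and 780, 854 and 830 with sauchinone, a log2 fold change of 0.08 ± 0.09 (SE, edgeR adjusted p = 0.52). Its 2 groups overlapped in CPM, and the sign turned with the trend of counts on span (−0.14) or on GC content (−0.049) removed. HOXA11, a gene of the forearm and the uterine stroma, had 677, 711 and 705 counts in UVB and 868, 886 and 806 with sauchinone. Each sauchinone library was above each UVB library in CPM, but the log2 fold change of 0.21 ± 0.09 missed the threshold (SE, edgeR adjusted p = 0.06). It passed when libraries were scaled by total count only (0.26, adjusted p = 0.025) or without UVB + sauchinone replicate 3 (0.27, adjusted p = 0.045), and it was −0.035 with the span trend removed.

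**Figure D3:**
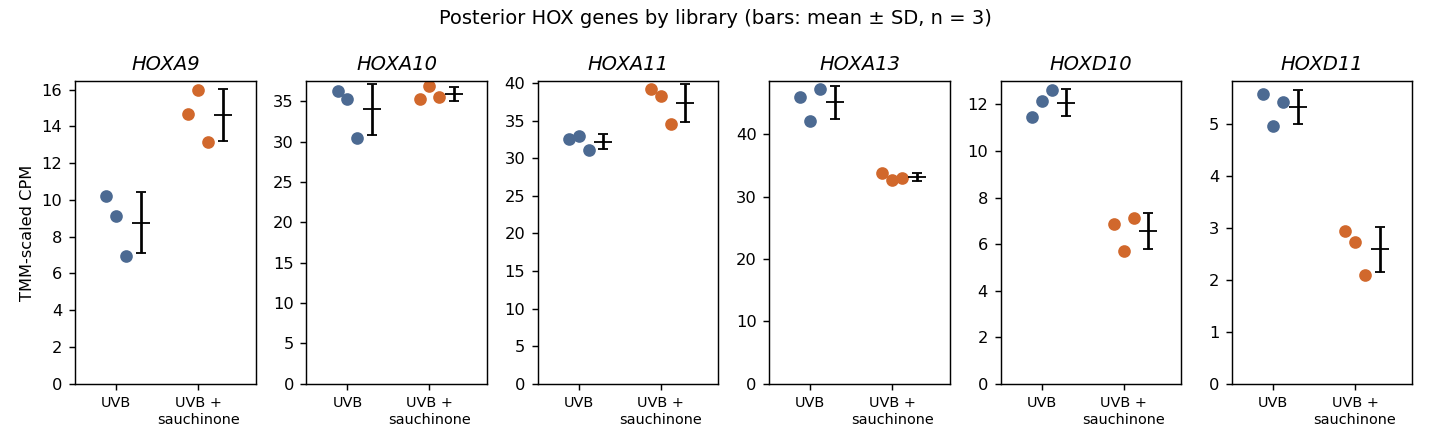
TMM-scaled CPM of 6 posterior HOX genes in each library (points) with the mean and SD of each group (n = 3), on axes that start at 0. HOXA9 lies higher in the 3 sauchinone libraries, HOXA13, HOXD10 and HOXD11 lie lower in them, and HOXA10 overlaps.

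HOXA genes of the middle of the cluster were at low counts, and HOXA5 and HOXA7, which were tested, did not pass. HOXA7 had 64, 58 and 66 counts in UVB and 90, 74 and 109 with sauchinone, without overlap in CPM (log2 fold change 0.46 ± 0.21, SE, edgeR adjusted p = 0.07). It passed by total count only (0.50, adjusted p = 0.048) or without UVB + sauchinone replicate 2 (0.59, adjusted p = 0.031). HOXA5, which acts in lung and thorax, had 12, 30 and 23 counts against 34, 24 and 28, which overlapped (0.33 ± 0.36, SE, edgeR adjusted p = 0.47). Another 4 HOXA genes fell below the filter and were not tested. HOXA2 had 4, 5 and 7 counts in UVB and 18, 8 and 10 with sauchinone, HOXA3 5, 5 and 5 against 6, 7 and 10, HOXA4 9, 11 and 8 against 7, 7 and 11, and HOXA6 5, 9 and 4 against 6, 8 and 10.

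In the HOXD cluster 2 neighbouring genes fell and the outermost one did not. HOXD10, a gene of the hindlimb and the lumbar cord, had 238, 262 and 286 counts in UVB and 152, 132 and 166 with sauchinone. Its mean fell from 12.1 ± 0.59 to 6.56 ± 0.75 CPM (SD, n = 3) with no overlap, 1.84-fold, a log2 fold change of −0.88 ± 0.14 (SE, edgeR adjusted p = 1.6e-05). HOXD11, which works with HOXA11 in the forearm and kidney, had 116, 107 and 123 counts in UVB and 65, 63 and 49 with sauchinone. The groups again stood apart, at 5.32 ± 0.33 and 2.59 ± 0.44 CPM (SD, n = 3). The fall was 2.06-fold, a log2 fold change of −1.04 ± 0.20 (SE, edgeR adjusted p = 1.2e-04). HOXD10 and HOXD11 share 965 bp in the table, so counts near that stretch may not be independent between them.

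HOXD13, the digit and genital gene at the 5′ end, had 47, 65 and 46 counts in UVB and 71, 75 and 66 with sauchinone, and its groups overlapped in CPM (0.35 ± 0.23, SE, edgeR adjusted p = 0.22). HOXD9 had 54, 60 and 81 counts against 52, 73 and 53 (−0.21 ± 0.23, SE, edgeR adjusted p = 0.49). HOXD8 had 42, 24 and 43 against 47, 28 and 31 (−0.11 ± 0.31, SE, edgeR adjusted p = 0.79), and both of these genes overlapped between the groups. Below the filter, HOXD12 had 8, 6 and 8 counts in UVB and 13, 12 and 4 with sauchinone, and HOXD4 2, 4 and 3 against 3, 2 and 5. HOXD3 had 9 counts in UVB replicate 3 and 6 in UVB + sauchinone replicate 1 and none in the other 4 libraries.

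HOXC6 and HOXC9 were the HOXC genes with enough counts to test. HOXC6, a thoracic gene, had 15, 8 and 13 counts in UVB and 33, 36 and 13 with sauchinone. UVB + sauchinone replicate 3 lay within the range of the UVB libraries, so the groups overlapped. The log2 fold change was 1.11 ± 0.43 (SE, edgeR adjusted p = 0.038), and the call was lost in 10 of the 17 alternatives that tested it, among them DESeq2 (adjusted p = 0.059) and limma-voom (adjusted p = 0.078). Leaving out UVB replicate 2 or 3 gave adjusted p = 0.12 and 0.07, and leaving out UVB + sauchinone replicate 1 or 2 gave 0.15 and 0.18. HOXC9 had 8, 18 and 25 counts against 19, 28 and 28 (0.48 ± 0.39, SE, edgeR adjusted p = 0.33). The table's HOXC6 contains all 8443 bp of HOXC9 and all 3785 bp of HOXC8, and it shares 13893 bp with HOXC4. Reads of these genes may therefore have been split among them.

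The remaining HOXC genes were near the limit of detection. HOXC8 had 3, 5 and 7 counts in UVB and 12, 7 and 16 with sauchinone, HOXC10 0, 7 and 8 against 2, 7 and 3, and HOXC11 3, 2 and 1 against 6, 3 and 1. HOXC4 (4 counts over the UVB libraries, 1 with sauchinone), HOXC5 (1 and 7) and HOXC13 (2 and 2) had counts in only some libraries. In HOXB, HOXB13, the distal gene known from prostate and hindgut, had 6, 4 and 7 counts in UVB and 3, 3 and 4 with sauchinone. HOXB2 had 1 count over the UVB libraries and 7 with sauchinone, HOXB7 1 and 0, HOXB3 0 and 1, and HOXB9 0 and 1. No fold is given for genes at these counts.

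Ratios of FPKM within a library do not depend on how libraries are scaled to each other, and they show unequal change of a pair without saying which gene moved. The pairs were chosen after the values were seen. HOXA13 over HOXA9 was 2.70, 2.77 and 4.05 in UVB and 1.38, 1.23 and 1.498 with sauchinone. HOXA13 over HOXA11 was 0.743, 0.674 and 0.800 in UVB and 0.454, 0.450 and 0.502 with sauchinone. Both ratios were lower in every sauchinone library than in every UVB library. HOXD10 over HOXD13 was 4.92, 3.91 and 6.04 in UVB and 2.08, 1.71 and 2.44 with sauchinone, again without overlap. HOXA11 over HOXA10 was 1.25, 1.30 and 1.42 against 1.55, 1.44 and 1.35, which overlapped.

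Among the 18 long noncoding RNAs of the clusters, 5 had enough counts to test, 2 were higher and 0 lower, with a median log2 fold change of −0.11. Over all tested genes 24.7% were higher and 24.9% lower. HOTAIRM1, transcribed from the 3′ side of HOXA, had 30, 42 and 45 counts in UVB and 62, 109 and 72 with sauchinone. The groups did not overlap, and the log2 fold change was 0.98 ± 0.25 (SE, edgeR adjusted p = 0.0026). HOXA11-AS, which runs against HOXA11 and shares 726 bp with it, had 136, 159 and 122 counts against 233, 215 and 242. It was 1.57-fold higher (0.65 ± 0.15, SE, edgeR adjusted p = 9.9e-04), and 0.40 on the log2 scale with the span trend removed (adjusted p = 0.025). The FPKM of HOXA11-AS relative to HOXA11 was 0.171, 0.191 and 0.148 in UVB and 0.229, 0.207 and 0.256 with sauchinone, so the antisense RNA stood higher against its partner in each sauchinone library. The others tested did not pass, with log2 fold changes of −0.43 for HOTTIP (which overlaps HOXA13 by 1517 bp), −0.11 for HOXA10-AS and −0.49 for HOXD-AS2, though HOXD-AS2 passed with the GC trend removed (−0.79, adjusted p = 0.041). HOTAIR, of the HOXC cluster, had 1, 5 and 5 counts against 8, 3 and 1.

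Overlap limits how reads can be assigned in these clusters. Of the 14 tested members, 11 overlapped a gene of the opposite strand and 7 another of the same strand in the table, including 4576 bp shared by HOXA9 and HOXA10. The labels' protocols describe strand-specific libraries, but whether counting used strand is not given in the sources used here.

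The TALE cofactors of HOX proteins were lower for the most part. Of the 9 PBX, MEIS and PKNOX genes, 7 were tested, 0 were higher and 6 lower, with a median log2 fold change of −0.55. Of all tested genes, 24.7% were higher and 24.9% lower. MEIS2 fell from 39.8 ± 3.4 to 16.2 ± 1.6 CPM (SD, n = 3; log2 fold change −1.29 ± 0.11, SE, edgeR adjusted p = 1.1e-09). Lower as well, and named after their values were seen, were PBX3 (−0.66), MEIS1 (−0.55), PKNOX1 (−0.41) and PBX2 (−0.36), and MEIS3 did not pass (0.04). The list's median genomic span was 140 kb, and most of these values shrank with the span trend removed. MEIS2 was then −0.69 (adjusted p = 6.3e-06). PBX3 at −0.034 (adjusted p = 0.77) and MEIS1 at −0.19 (adjusted p = 0.06) no longer passed, while PBX2, which is short, was −0.61 and PKNOX1 −0.37. MEIS3 took the opposite sign in that setting, at −0.13.

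**Figure D4:**
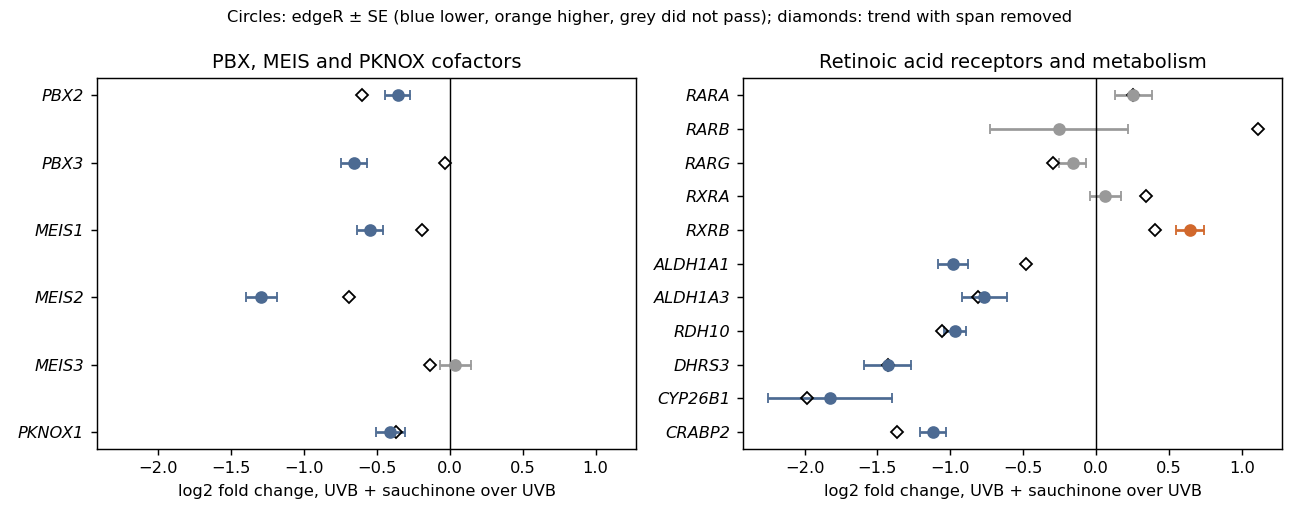
Log2 fold change, UVB + sauchinone over UVB, of 6 tested HOX cofactors (left) and of retinoic acid receptors and metabolism genes (right), as circles with bars of ± 1 SE and diamonds for the value with the span trend removed. The diamonds of PBX3 and MEIS2 lie nearer 0 than the circles, while those of RDH10 and CRABP2 lie farther from it.

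Genes that make, bind and break down retinoic acid were also mostly lower, with 1 of 11 tested higher, 6 lower and a median log2 fold change of −0.77. The shares over all tested genes were 24.7% higher and 24.9% lower. RDH10, the enzyme that oxidises retinol on the way to retinoic acid, had 3384, 3402 and 3781 counts in UVB and 1748, 1933 and 2018 with sauchinone (−0.97 ± 0.08, SE, edgeR adjusted p = 5.6e-10). CRABP2, which carries retinoic acid to its receptors, had 3350, 2923 and 3506 against 1363, 1665 and 1738 (−1.12 ± 0.09, SE, edgeR adjusted p = 7.2e-10). Lower too, and picked for naming with their values in view, were DHRS3 (−1.43), which returns retinal to retinol, the aldehyde dehydrogenases ALDH1A1 (−0.98) and ALDH1A3 (−0.77), and CYP26B1 (−1.83), which degrades retinoic acid. CYP26B1 was at low counts, 25, 34 and 19 in UVB and 7, 9 and 7 with sauchinone. ALDH1A1 was −0.48 with the span trend removed. The receptor RXRB rose (0.64 ± 0.09, SE, edgeR adjusted p = 5.5e-06), and RARA (0.26), RXRA (0.06), RARG (−0.16) and RARB (−0.25) did not pass. RARG was lower with the trend with span (adjusted p = 0.0088) or GC (7.2e-05) removed or without UVB replicate 3 (0.044), and RXRA was higher with the trend with span (0.013) or exonic size (0.038) removed.

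Polycomb genes passed the test about as often as genes at large, of which 24.7% were higher and 24.9% lower. Of 11 genes of Polycomb repressive complex 2, 2 were higher and 3 lower, with a median log2 fold change of 0.03. The higher count was 4 with total count only or the trend with span or GC removed, and both counts were 1 with a minimum fold of 1.2 or without UVB + sauchinone replicate 1. The higher count was also 1 without UVB replicate 1 or UVB + sauchinone replicate 3. EZH2, its histone methyltransferase, rose (0.52 ± 0.11, SE, edgeR adjusted p = 4e-04), as did PHF1 (0.28), which was 0.035 with the span trend removed (adjusted p = 0.79). PHF19 (−0.71), RBBP7 (−0.25) and JARID2 (−0.33) were lower, but JARID2 was higher with the span trend removed (0.43, adjusted p = 0.003). The calls of these less changed genes depended on single libraries. PHF1 did not pass without UVB replicate 1 or 3 or without UVB + sauchinone replicate 1 or 3 (adjusted p of 0.12, 0.065, 0.14 and 0.051), JARID2 without replicate 1 of either group (0.13 and 0.10), and RBBP7 without UVB + sauchinone replicate 1 (0.077). Of 18 tested genes of Polycomb repressive complex 1, 6 were higher and 3 lower, with a median of 0.16, and 3 were higher without UVB + sauchinone replicate 2. Among the higher ones, and chosen after their values were seen, were PHC2 (0.64 ± 0.09, SE, edgeR adjusted p = 2e-06) and the chromodomain protein CBX8 (0.67 ± 0.20, adjusted p = 0.0077). CBX8 did not pass with the span trend removed (0.45, adjusted p = 0.065) or without UVB + sauchinone replicate 2 (0.46, adjusted p = 0.087). SCMH1 (−1.10 ± 0.14, SE, edgeR adjusted p = 1.2e-06), PCGF5 (−0.54) and PHC3 (−0.32) were lower, at −0.49, −0.26 and −0.15 with the span trend removed, where PHC3 did not pass (adjusted p = 0.11).

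Of 13 genes of MLL complexes and the demethylases that remove the Polycomb mark, 6 were higher and 2 lower (1 with the span trend removed), with a median of 0.14. Genes at large were higher in 24.7% and lower in 24.9% of cases. KDM6B, such a demethylase, had 222, 181 and 220 counts in UVB and 420, 506 and 392 with sauchinone (1.00 ± 0.13, SE, edgeR adjusted p = 1.3e-06). KMT2C, a histone methyltransferase of an MLL complex, fell (−0.91 ± 0.09, SE, edgeR adjusted p = 2.9e-08) but was −0.10 with the span trend removed (adjusted p = 0.33). PSIP1, which tethers MLL complexes to chromatin, was lower (−0.49 ± 0.10, SE, edgeR adjusted p = 1.8e-04).

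Of the nearest protein-coding genes outside the clusters, 4 had enough counts to test, and both that passed were lower, as were 24.9% of all tested genes. SKAP2, 97.8 kb beyond the HOXA cluster, was lower (−1.44 ± 0.11, SE, edgeR adjusted p = 2.6e-10) and −0.59 with the span trend removed. MTX2, 78.5 kb beyond HOXD1, was lower (−0.35 ± 0.10, SE, edgeR adjusted p = 0.008), and HOXD1 had no count. Without UVB + sauchinone replicate 1 MTX2 had an adjusted p of 0.051. Beside HOXC, CALCOCO1 (−0.19, edgeR adjusted p = 0.051) and SMUG1 (−0.12, adjusted p = 0.47) did not pass, though CALCOCO1 passed in 9 of 18 alternatives. EVX2, 8.76 kb beyond HOXD13, had 0 counts over the UVB libraries and 1 with sauchinone, and EVX1, 42.6 kb beyond HOXA13, had 0 and 5. Beside HOXB, SKAP1 had 1 count over the UVB libraries and 1 with sauchinone, TTLL6 had 6 and 1, and neither was tested.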

How the data were processed

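The authors deposited whole-number counts per gene for the 6 libraries, with FPKM values and exonic sizes. The genome build was GRCh38, per the submitters' processing notes. Which aligner, counting program and annotation release served is not given in the sources used here. Per the labels' protocols, RNA was either poly(A)-selected or depleted of ribosomal RNA, and a dUTP library method is described. The deposited FPKM equalled count over exonic size and total count within 0.006.

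The counts were fitted with edgeR 4.0.16 in R 4.3.3 (filterByExpr, TMM, quasi-likelihood, two-sided, no covariates), adjusted over 15704 genes at a threshold of 0.05. The SE is the log2 fold change over the square root of F, with a median of 0.12. CPM are TMM-scaled. Alternatives used DESeq2 1.42.0, limma 3.58.1, other scalings, filters and libraries, and offsets removing a lowess trend with span, exonic size or GC (GENCODE release 29, 98.2% of tested genes). The fit and the trend removal were tested on simulated data in which only a small part of the genes was changed. Scaling under a change as wide as in these data was therefore not tested.

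All HOX genes enter the counts, and nearly all are given by name. Of the other lists, the rule names the 2 genes with the smallest p and directions of up to 3 genes. A few genes that these rules would name are not reported here, in text or plots. The members, lists and motifs were chosen with earlier results of these data known, so they are described by counts and medians, without a test of the list.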

Additional observations from a re-analysis of the deposited data

How the results depend on the processing

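HOXA9, HOXA13, HOXD10 and HOXD11 kept their direction and call in all 18 alternatives, with log2 fold changes of 0.54 to 0.86, −0.69 to −0.33, −1.09 to −0.79 and −1.35 to −0.91, so 3 HOX genes were lower in each. The number of HOX genes higher was 1 in place of 2 with DESeq2, limma-voom, a mean of at least 1 CPM, the replicate block, the trend with exonic size or GC content removed, and a minimum fold of 1.2, where HOXC6 was lost or not tested. It was 4 with total count only, which added HOXA7 and HOXA11 and moved the share of called genes that were higher from 49.7% to 54.8%. Leaving out 1 library in turn gave 1 to 3 HOX genes higher. Over all tested genes, 2357 were higher with a minimum fold of 1.2, in place of 3872. HOX genes with a count in every library numbered 12 at a minimum of 10 counts, and 32 HOX genes were tested with no filter beyond 1 count. Of the retinoic acid genes, 2 were higher with the trend with span or exonic size removed, and 7 were lower with that of span or GC removed. Of 250 values of tested HOX genes, 231 kept direction and call, 10 lost the call, 4 gained it and 5 changed sign.

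Signs that turned were those of HOXA10 (−0.14 with the span trend removed, −0.049 with that of GC), HOXA11 (−0.035, span), MEIS3 (−0.13 span, −0.0025 exonic size, −0.21 GC), JARID2 (0.43, span), RARB (1.11, span), RARA (−0.014, GC) and RXRA (−0.17, GC). With 1 library left out, the ranges that crossed 0 were −0.40 to 0.036 for HOXD8, −0.19 to 0.012 for HOXA10-AS, −0.037 to 0.088 for MEIS3, −0.49 to 0.11 for RARB and −0.039 to 0.13 for RXRA. The cause was not tested. Among the other genes named, 10 did not pass with a minimum fold of 1.2: PBX2, PKNOX1, MTX2, PHF1, JARID2, RBBP7, PHC3, PAX3, TBX4 and PRRX2 (adjusted p of 0.064 to 0.52). FOXD1 did not pass with the trend with span or GC removed (0.07 and 0.098), PHC3 with that of exonic size or GC removed (0.99 and 0.22), and RBBP7 with that of GC removed (0.18).

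Deviations from the group means correlated at 0.0072, −0.078 and −0.031 for same-numbered libraries. For differently numbered libraries they correlated at −0.070 to 0.098. With 3 libraries per group, these values cannot decide whether the replicate numbers pair the libraries. With the replicate block 3603 genes were higher and 3677 lower. At these totals 25 of the 39 HOX genes fell below the count filter of the test and are given as counts. With no filter beyond 1 count, the same 5 HOX genes were called among 32 tested.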

Other observations

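Other transcription factors that mark position in skin and limb mesenchyme were described from a list of 36 genes, of which 26 were tested, 5 were higher and 4 lower, with a median log2 fold change of −0.04 against 0.0071 over all tested genes. Of the latter, 24.7% were higher and 24.9% lower. The lower count was 7 with the trend with span removed, 8 with that of GC and 2 with a minimum fold of 1.2. PRRX1, a factor of limb bud and dermal fibroblasts, fell from 431 ± 59 to 231 ± 10 CPM (SD, n = 3; log2 fold change −0.90 ± 0.08, SE, edgeR adjusted p = 8.9e-09). MSX1, a homeobox gene of the distal limb and skull, rose from 3.20 ± 0.51 to 8.35 ± 1.5 CPM (1.39 ± 0.18, SE, edgeR adjusted p = 1.6e-06). The others named here were picked after their values were seen. SIX2 (1.77), FOXD1 (0.51), TBX3 (0.48) and PAX3 (0.33) were higher, and LHX9 (−0.66), PRRX2 (−0.48) and TBX4 (−0.42) lower. SIX2 was at low counts, 14, 8 and 16 in UVB and 38, 54 and 46 with sauchinone (SE 0.35, edgeR adjusted p = 2e-04). Leaving out single libraries ended the calls of PAX3 (UVB replicate 1 or 2 or UVB + sauchinone replicate 2, adjusted p of 0.074, 0.098 and 0.087), TBX4 (UVB replicate 2 or UVB + sauchinone replicate 1 or 3, 0.18, 0.17 and 0.069) and PRRX2 (UVB + sauchinone replicate 2, 0.06). TBX5, the forelimb counterpart of TBX4, had 1340, 1423 and 1439 counts in UVB and 1345, 1282 and 1740 with sauchinone (−0.02, edgeR adjusted p = 0.86).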
